A study of Mus musculus with 4 samples.

Results

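Long noncoding RNA (lncRNA) genes that lie away from protein-coding genes were examined for binding of CTCF at their ends in the mouse testis. The peaks described were the autosomal CTCF peaks whose summit, the base of highest signal, was at most 1 kb from either end of a RefSeq lncRNA gene and over 5 kb from any end of a protein-coding gene. By this rule 1331 of the 51871 peaks in the deposited list were members, or 4.06% of the 32785 autosomal peaks that met the distance from coding genes. Placing the summit 1 base lower, as a count from 0 would, gave 1330. A further 1292 autosomal peaks lay at a lncRNA end within 5 kb of a coding end and were left out.

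The series comprised 4 samples of whole testes from F1 mice of a B6xCAST cross: 2 CTCF immunoprecipitations (IP) and 2 inputs. The animals' ages and any treatment were not given in the sources used here. The tissue was not sorted, so signal from more bound cells of a type and from stronger binding per cell could not be told apart. The 1 list of merged peaks holds no value per sample: no spread between replicates stands behind any value, the read depth is unknown, and chromosomes served as the units of the tests.

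CTCF is a zinc-finger protein that binds a long, directional DNA motif, halts the cohesin ring as it extrudes chromatin and thereby anchors loops and marks domain boundaries. A lncRNA gene is transcribed into a long RNA without a recognised protein product; its promoter can act on neighbouring genes whether or not the RNA itself has a function. The testis transcribes an unusually large set of lncRNA genes, many known only from predicted models or from cDNA clones. Because genes of this kind often start next to a coding gene, the distance rule leaves only sites away from the outer ends of coding genes. Coding promoters inside a gene body are not excluded by it.

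Short sequences from 5 promoters show what lay at or near these summits. They come from genes with high fold enrichment (IP signal at the summit over background, as deposited by the authors) among members whose summit fell inside a RefSeq promoter window and whose window matched the CTCF core. A window spans 250 bases before to 50 bases after an annotated transcript start. The core was searched on both strands as CCA, any 2 bases, AG, any 2 bases, GGC. The sequences are from RefSeq, build GRCm38.p6 (mm10), and run 5′ to 3′ along the strand of the lncRNA, with the match in capitals. Whether the alleles of the F1 mice differ from this build, here or in the other windows searched, was not examined.
Gm30107: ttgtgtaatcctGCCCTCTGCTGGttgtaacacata
Gm36358: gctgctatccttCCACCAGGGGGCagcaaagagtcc
Gm41453: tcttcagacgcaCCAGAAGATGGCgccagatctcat
Gm34552: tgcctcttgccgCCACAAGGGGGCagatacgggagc
Gm42228: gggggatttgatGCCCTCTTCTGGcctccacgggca
These stretches lie at chr8:114081209-114081244 (minus strand), chr1:65112189-65112224 (plus), chr16:38482985-38483020 (minus), chr12:74317171-74317206 (minus) and chr5:23853141-23853176 (minus). The fold enrichment at their summits was 15.7, 15.6, 15.0, 12.3 and 12.3. In Gm36358, Gm41453 and Gm34552 the core reads along the direction of transcription, and in Gm30107 and Gm42228 it reads against it. The centre of the match lay 0.5 bases from the summit in Gm36358, 1.5 in Gm34552, 17.5 in Gm30107, 21.5 in Gm41453 and 76.5 in Gm42228, whose window also holds a nearer match, not printed, with its centre 34.5 bases from the summit.

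CTCF summits were denser at the starts of lncRNA genes than at their 3′ ends, where no excess over the flanks was detected. Strand was known for 9291 of the 12324 autosomal lncRNA genes, from the promoter table, which had no chromosome 18 entry. Within 1 kb of these starts, counting only sequence over 5 kb from coding ends, there were 44.9 summits per Mb (623 in 13.9 Mb). The flanks of 5 to 10 kb around the same starts held 25.1 per Mb, and the ratio was above 1 in 18 of 18 autosomes (mean log2 ratio 0.85 ± 0.25, SD, n = 18 autosomes). The exact two-sided sign-flip test over autosomes, which reverses the signs of the log2 ratios in every combination, gave an adjusted p of 1.9e-05. Around the 3′ ends there were 27.6 summits per Mb against 26.1 in the flanks, with a ratio above 1 in 9 of 18 autosomes (exact sign-flip adjusted p = 0.837; mean log2 ratio 0.017 ± 0.35, SD, n = 18). Flanks left out only sequence within 5 kb of ends of the same kind, so those of 3′ ends could hold starts. Sequence over 5 kb from coding ends and over 1 kb from any lncRNA end held 15.3 per Mb. The 3′ ends alone were not tested against it. Starts set directly against 3′ ends had the higher density in 18 of 18 autosomes (mean log2 ratio 0.74 ± 0.33, SD; exact sign-flip adjusted p = 1.9e-05). This split of starts and 3′ ends by density was chosen after the values were seen.

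**Figure D1:**
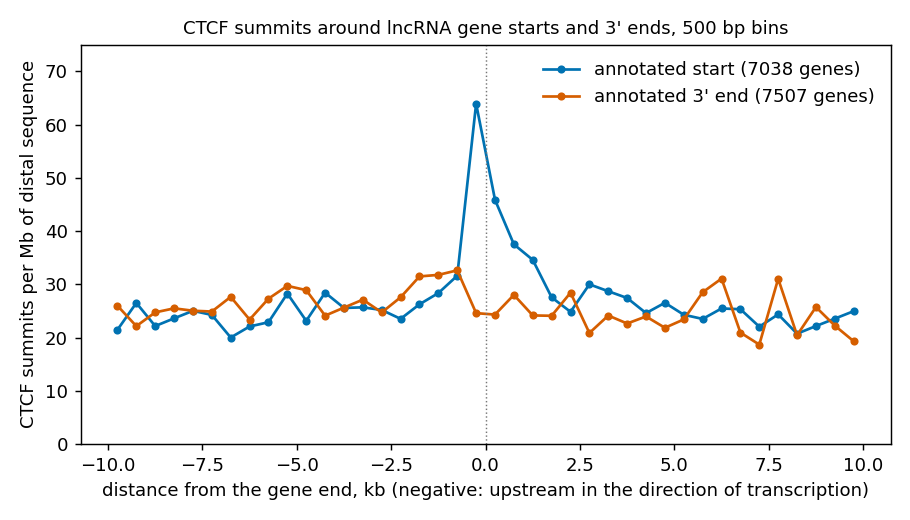
Density of CTCF summits (vertical axis, summits per Mb of sequence over 5 kb from coding ends) by distance from the annotated start (blue) or 3′ end (orange) of lncRNA genes, in bins of 500 bp, with negative distances upstream in the direction of transcription. The start curve peaks at 63.9 per Mb in the 500 bp upstream and the 3′ end curve is highest, at 32.6 per Mb, in the bin from 500 bp to 1 kb upstream of the 3′ end.

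Summits at starts were densest just upstream. The 500 bp before the start held 224 summits (63.9 per Mb), the 500 bp after it 161 (45.9 per Mb), and the bins from 500 bp to 1 kb held 31.6 per Mb upstream and 37.5 downstream. At 3′ ends the nearest bins held 24.6 and 24.3 per Mb, near the 25.7 and 24.2 per Mb found 5 to 10 kb away on either side. The 3 bins from 500 bp to 2 kb upstream of the 3′ end held 32.6, 31.8 and 31.5 per Mb, and the bin from 500 bp to 1 kb downstream held 28.03 per Mb. The starts entering these bins numbered 7038 and the 3′ ends 7507, and sequence near several genes counts for each. Among the members themselves, 613 had a start as the nearest lncRNA end, 389 a 3′ end, and 329 an end of unknown kind. Of those at a start, 142 (23.2%) had the summit within 100 bp of it, against 35 (8.997%) of those at a 3′ end.

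Taking all lncRNA ends together, with or without known strand, the windows over 5 kb from coding ends covered 37.4 Mb and held 35.6 summits per Mb. The rest of the distal genome held 15.3 per Mb over 2059 Mb, 2.33 times less. The density was higher at lncRNA ends in 19 of 19 autosomes (exact sign-flip adjusted p = 2.3e-05; mean log2 ratio 1.20 ± 0.17, SD, n = 19). The flanks of 5 to 10 kb around lncRNA ends held 22.6 per Mb, more than the rest of the distal genome, and against them the ratio was 1.58.

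Peaks at lncRNA ends were wider than other distal peaks, and no difference in fold was detected. Their fold had a median of 7.10, from 1.35 to 22.3, with a middle range (25th to 75th percentile) of 4.96 to 9.63. The 31454 other peaks over 5 kb from coding ends had the same median of 7.10 and a middle range of 5.07 to 9.52. The mean log2 ratio of the chromosome medians was −0.016 ± 0.12 (SD, n = 19 autosomes), above 0 in 9 of 19 (exact sign-flip adjusted p = 0.569). Folds of 10 or more were seen in 296 members (22.2%), close to the 21.2% of the other distal peaks.

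Width had a median of 649 bp in members and 521 bp in other distal peaks, a ratio of 1.246. By chromosome the median width ran from 491 to 740 bp in members and from 473.5 to 562 bp in the others. Members were wider in 18 of 19 autosomes (mean log2 ratio 0.28 ± 0.16, SD; exact sign-flip adjusted p = 3.8e-05). The −log10 q deposited by the authors, a measure of the confidence of the peak call, had medians of 40.3 and 32.5. It was higher in members in 18 of 19 autosomes (mean log2 ratio 0.28 ± 0.21, SD; exact sign-flip adjusted p = 5.7e-05). That call was lost when only genes with a symbol other than a Gm number or LOC were counted (265 members; medians 39.2 and 32.7; higher in 13 of 19 autosomes, mean log2 ratio 0.022 ± 0.69, SD; exact sign-flip adjusted p = 0.891).

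Both differences passed the test outside coding genes and did not pass it inside them, a split chosen after the values were seen. Outside coding genes the median −log10 q was 43.9 in 973 members and 35.0 in the others (exact sign-flip adjusted p = 1.5e-04, higher in 18 of 19 autosomes), and the width 701 and 548 bp (exact sign-flip adjusted p = 1.1e-04, wider in 17 of 19). Inside coding genes, with 358 members, the −log10 q was 29.5 and 29.7 (mean log2 ratio −0.092 ± 0.52, SD; exact sign-flip adjusted p = 0.451, higher in 10 of 19) and the width 558.5 and 499 bp (mean log2 ratio 0.10 ± 0.29, SD; exact sign-flip adjusted p = 0.212, wider in 11 of 19). The median fold there was 6.48 in members and 7.01 in the others (exact sign-flip adjusted p = 0.074, higher in 5 of 19). Whether the differences inside and outside coding genes differ from each other was not tested.

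**Figure D2:**
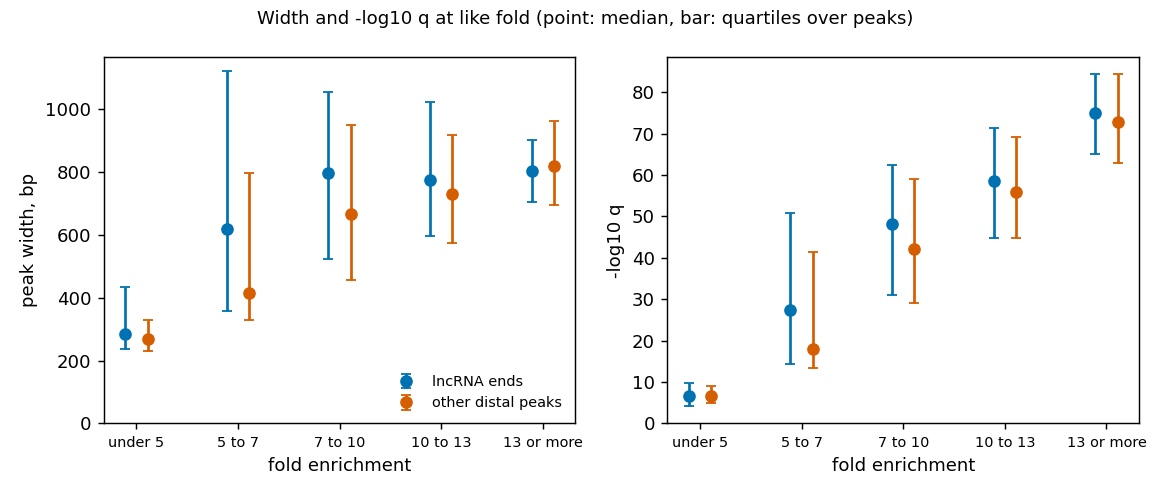
Peak width in bp (left) and −log10 q (right) for members (blue) and other distal peaks (orange) in 5 classes of fold enrichment; points are medians and bars the quartiles over peaks. The sets part most at folds of 5 to 7, where the median widths were 618 and 413 bp, and are close under 5 and at 13 or more.

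The difference in median width was largest at middle folds. At folds of 5 to 7 the 316 members had a median width of 618 bp, against 413 bp for the others, and a −log10 q of 27.4 against 17.998. Between 7 and 10 the widths were 796 and 665 bp. Under a fold of 5 they were 285 and 267 bp, and at 13 or more 802 and 819 bp. Over folds of 5 to 10 together, a range chosen after the values were seen, members were wider with a ratio of 1.31 (exact sign-flip adjusted p = 6.1e-05). Widths of 1 to 2 kb were found for 302 members (22.7%) and for 15.4% of the other distal peaks.

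Against peaks at coding genes the members had higher folds, as did the other distal peaks. The 8275 autosomal peaks within 1 kb of a coding end had a median fold of 5.56, and the ratio of 1.28 was above 1 by chromosome in 17 of 19 autosomes (mean log2 ratio 0.33 ± 0.17, SD; exact sign-flip adjusted p = 3.8e-05). The other distal peaks had the same median fold as the members, 7.10, so the difference from coding ends was not particular to lncRNA ends. Among peaks of fold at least 5 the ratio of members to coding-end peaks was 1.07, which dropping weak peaks moves towards 1 by construction. Within the members, peaks nearest a start had a median fold of 6.90 and those nearest a 3′ end 7.48. The starts were lower in 11 of 18 autosomes (mean log2 ratio −0.15 ± 0.24, SD; exact sign-flip adjusted p = 0.0137). The furthest autosome was 14, at −0.89, where 15 peaks at starts had a median fold of 5.05 and 12 at 3′ ends 9.36. Width (642 against 703 bp) and −log10 q (39.2 against 43.3) did not pass the test between starts and 3′ ends (exact sign-flip adjusted p = 0.388 and 0.111).

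**Figure D3:**
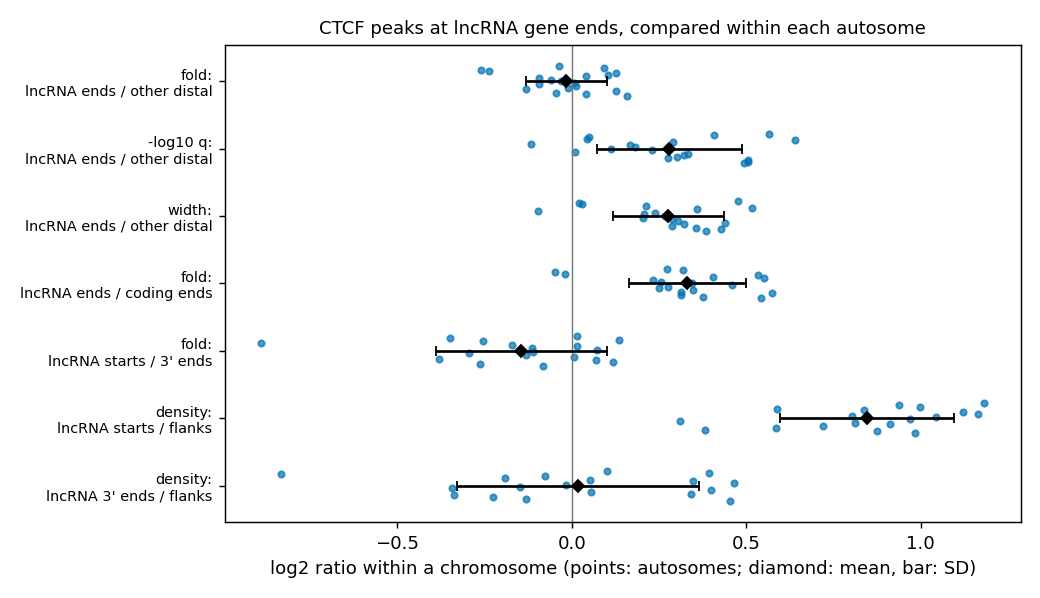
Log2 ratios within each autosome (points) with their mean (diamond) and SD (bar) for 7 comparisons named on the vertical axis. Points for width, −log10 q and density at starts lie almost all above 0, while those for fold against other distal peaks and for density at 3′ ends lie on both sides.

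Fewer of the members than of the comparison set lay inside coding genes, a difference that was not tested. Of the members 26.9% had the summit inside the body of a protein-coding gene, against 50.6% of other distal peaks. The lncRNA genes themselves set a base share: of 11046 with an end window away from coding ends, 3662 overlapped a coding gene. Among the 1290 of them with a member summit, 399 did. Outside coding genes the median fold was 7.29 in members and 7.19 in the other distal peaks. The nearest coding end was a median of 24.1 kb away, and for 177 members (13.3%) over 100 kb. The nearest other CTCF summit was a median of 8.74 kb away, against 10.7 kb for other distal peaks. By place in the lncRNA gene, 644 summits fell inside it and 687 outside. For 31 members ends of 2 lncRNA genes lay within 1 kb, and for the other 1300 those of 1 gene.

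Counted by gene, 11046 autosomal lncRNA genes had at least 1 base of an end window over 5 kb from coding ends, and 1290 of them (11.7%) had a member summit. The share was 11.7% ± 2.33 over chromosomes (SD, n = 19 autosomes) and was lowest on chromosome 14, at 7.26%, and highest on chromosome 11, at 16.5%. Genes with predicted names (Gm and a number) had a summit in 1017 of 8962 cases (11.3%, exact Clopper-Pearson 95% interval 10.7 to 12.02). Genes named for clones of testis cDNA libraries had one in 88 of 777 (11.3%, interval 9.18 to 13.8), a share near the 11.7% of all. Other clone-named genes had one in 106 of 727 (14.6%, interval 12.1 to 17.4). Host genes of microRNAs or small nucleolar RNAs had one in 7 of 22 (31.8%, interval 13.9 to 54.9), and genes named as opposite-strand transcripts in 18 of 158 (11.4%). These classes were not tested against each other, and the intervals cover counting error only.

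The strongest member lay at Platr22, a pluripotency-associated transcript, whose summit reached a fold of 22.3, with 111 for its −log10 q. Its peak at chr1:136725863-136726887 was 1025 bp wide, with the summit 598 bp from the 3′ end. Next came Gm34201 (chr15:84616589-84617447) with a fold of 19.95 at 326 bp from its 3′ end, and Gm33041 (chr13:52223429-52224230) with 18.97 at 989 bp from its start, 281 kb from the nearest coding end. Folds of 18.8, 18.4 and 18.3 were found nearest the starts of Gm14095, 1500009C09Rik and Gm10433. The other 4 of the top 10 were 4930447M23Rik (18.2), 4933412E12Rik (18.1), AW495222 (18.03) and Gm41559 (17.97). Of these 10 summits 6 were nearest a start and 4 nearest a 3′ end, and only that of AW495222 lay within 100 bp of the end. Apart from Platr22, their widths were close together, from 755 to 904 bp.

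AW495222 is shown whole because its summit, 3 bp from the start, was the strongest inside any of the promoter windows. The window holds no full match to the searched core. The sequence covers chr13:93719126-93719425, minus strand, and the summit is its base 248.
AW495222: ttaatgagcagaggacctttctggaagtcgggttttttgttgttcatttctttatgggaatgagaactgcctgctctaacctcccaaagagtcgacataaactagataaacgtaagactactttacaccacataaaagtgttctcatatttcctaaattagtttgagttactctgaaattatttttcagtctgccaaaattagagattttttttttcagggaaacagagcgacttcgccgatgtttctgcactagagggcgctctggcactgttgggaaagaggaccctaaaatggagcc
No match here says only that these 12 letters are not in this window. The stretch gcactagagggc, which begins at the base after the summit, differs from the core only in its first letter. The peak was 791 bp wide, so it reaches well beyond the sequence shown.

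Of the testis clone genes, the 5 strongest sites were at 4930447M23Rik, 4933412E12Rik, 4933427I22Rik, 4930553P18Rik and 1700072F12Rik. The last 3 had folds of 17.4, 16.5 and 15.4, with summits 659, 814 and 700 bp from an end. The site of 4930553P18Rik lay 6.33 kb from Figla, which encodes a germ cell transcription factor. The site of 1700072F12Rik had a width of 1438 bp, and the other 4 spanned 755 to 802 bp.

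Among 56 names of well-studied lncRNAs, 49 matched an autosomal lncRNA gene and 42 had an end window away from coding genes. A member summit was found at 9 of the 42 (21.4%, exact 95% interval 10.3 to 36.8), beside 11.7% of all such genes. The strongest was Peg13, a paternally expressed imprinted gene within an intron of Trappc9, with a fold of 15.5 at 198 bp from an end. Chaserr, whose transcription restrains the neighbouring remodeller gene Chd2, followed with 13.4 at 227 bp from its start. Snhg11, a host of small nucleolar RNAs, had 9.29 at 131 bp and Kcnq1ot1, the antisense RNA that silences an imprinted domain, 7.35 at 70 bp from its start. Malat1, an RNA of nuclear speckles, had 5.47 at 941 bp, and Bvht, studied in heart cell commitment, 5.37 in a wide peak of 2223 bp.

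The remaining 3 of these genes were bound weakly. Norad, whose RNA binds Pumilio proteins, had 2 summits near an end, with folds of 3.36 and 3.09. Oip5os1, also known as Cyrano and involved in microRNA decay, had folds of 2.44 at its start and 2.90 near its 3′ end. Dleu2, a microRNA host, had 3.29 at 316 bp from its start. All 5 peaks were below the lower quartile of members, 4.96.

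Other well-studied genes came close without meeting the rule. Some had a summit within 1 kb of an end that was left out for lying within 5 kb of a coding end. These were Crnde (fold 4.99 at 276 bp), Tug1 (4.40 at 328 bp) and Hotair (3.53 at 569 bp). At others the summit was too far from the lncRNA end. Summits lay 1.04 kb from Carmn (fold 15.2), 1.26 kb from Pantr2 (6.39), 1.38 kb from Miat (13.01) and 1.56 kb from Airn (8.98). Neat1, the scaffold of paraspeckles, had its nearest summit 4.91 kb away with a fold of 14.8. At Pvt1 and Rmst the nearest summits were 50.9 and 143 kb from an end. These genes were picked out after their values were seen.

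Host genes were led by Mirc35hg with 10.3 and Mir22hg with 10.2, followed by Snhg11. The Mir22hg summit lay 15 bp from the start, and that of Mirc35hg 812 bp away. Opposite-strand genes were led by Arhgap27os3 (17.3), Bcas1os2 (16.2) and Bach2os (14.6), each with its summit inside the coding gene it is named for or another coding gene.

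A member summit at each end was found at 41 of the 1290 lncRNA genes with a member summit, themselves part of 11046 away from coding ends. Of the 41, 38 were over 2 kb long. Their median length was 5.26 kb, against 7.19 kb for genes with any member summit and 9.32 kb for all 11046. Ranked by the weaker end, Gm40904 came first with folds of 11.9 and 11.3 at ends 6.48 kb apart. Bcas1os2 had 16.2 and 9.86 at ends 24.1 kb apart, Gm30241 11.1 and 9.83, 2700003A03Rik 11.4 and 9.75, and Gm31617 8.97 and 9.15. These 5 genes were chosen for their high weaker ends. Further down the ranking, from Gm41361 (6.99) to Gm12925 (2.22), the weaker end was below the members' median of 7.10. The lower of 2 folds tends to fall below a median of single peaks by construction.

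Most bound genes had a single member summit (1221 of 1290), 67 had 2, and 2 had more. Gm40468 on chromosome 8 (20257557 to 20261199) had 4, with folds of only 2.05 to 3.18, the first of these among the 3 lowest of all members. Gm39386 on chromosome 9 had 3, with folds of 5.55, 3.0002 and 6.63 within its 2.18 kb. The other lowest folds were 1.65 at Gm40337 and 1.35 at Gm52862. Whether reads could be placed uniquely at these genes was not examined.

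At the edges of the rule, the members farthest from an end were Gm30943 at 1000 bp (fold 6.59) and Gm32563 at 999 bp (10.5). The nearest peaks left out lay 1001 bp from Gm51914 (5.74) and 1003 bp from Gm33940 (4.01). On the coding side, members at Slfn5os and Gm20556 lay 5015 and 5021 bp from a coding end, with folds of 6.25 and 4.94. Peaks at Gm30963 and Gm31536, both 4996 bp from one, were left out with folds of 5.005 and 8.97.

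Matches to the CTCF core were common in the bound promoter windows. A member summit lay inside 203 lncRNA windows, and 52 of these (25.6%) held the core (CCA, any 2 bases, AG, any 2 bases, GGC) on either strand. Over all 32851 promoter windows of the table the share was 2.43%, and over 8397 lncRNA windows away from coding ends and without any summit it was 1.83%. For a tighter core (CCA, any 2 bases, AGGGGGC), whose matches are all among those of the first motif, the shares were 6.90% of the 203, 0.371% of all and 0.0238% of the windows without a summit. For a looser core (CC, any 3 bases, AG, any 2 bases, GGC), which takes in all matches of the first, they were 42.4%, 8.61% and 4.50%. A summit within the window does not by itself place the match at the summit, but 44 of 48 matches had their centre within 50 bp of it, with a median of 12 bp. Of the 48 matches, 27 read along transcription and 21 against it.

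The windows with a match held the wider peaks. The 184 distinct summits inside windows divided into 45 with a match and 139 without. Their median folds were 7.10 and 6.54, with middle ranges of 5.46 to 10.9 and 4.79 to 9.40, and their median widths 954 and 609 bp. A match was present for 6 of 45 summits of fold under 5 (13.3%), 24 of 97 between 5 and 10 (24.7%) and 15 of 42 at 10 or above (35.7%). These counts are given as a description and were not tested.

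**Figure D4:**
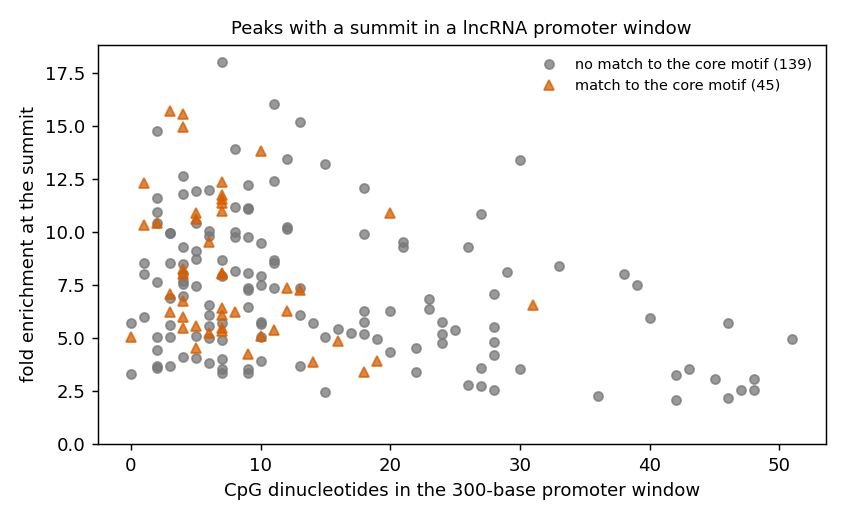
Fold enrichment (vertical axis) against the number of CpG dinucleotides in the 300-base promoter window (horizontal axis) for the 184 members with a summit in such a window; triangles mark windows with a match to the core and circles those without. Of the 42 windows with 20 or more CpGs, 2 hold a match to this core and 13 a match to the looser one.

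Bound lncRNA promoters differed widely in CpG content. The 203 bound windows had a median of 9 CpG dinucleotides and a GC content of 53%, against 3 and 47% for lncRNA windows without a summit. Coding windows had a median of 13 CpGs. Of the members' summits, 42 lay in windows with 20 or more CpGs: their median fold was 5.08, their −log10 q 15.2, and 2 of the 42 (4.76%) had a match to the core. In the 73 with 4 to 9 CpGs the median fold was 8.01, the −log10 q 47.3, and 26 (35.6%) had a match. The 41 with 10 to 19 CpGs had a median fold of 6.28, a width of 876 bp and 10 matches (24.4%). The 28 with 0 to 3 CpGs had a median fold of 7.38, a −log10 q of 36.6, a width of 518 bp and 7 matches (25%), below the class of 4 to 9 CpGs in all 4 values. Matches to the looser core were found in 10 of 28 (35.7%), 36 of 73 (49.3%), 17 of 41 (41.5%) and 13 of 42 (31.0%) windows, from the fewest CpGs to the most.

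Chaserr and Kcnq1ot1 are shown as well-studied genes with a summit inside the window, the former with more CpGs than the latter. Neither window holds a match, so no letters are capitalised. The Chaserr window (chr7:73558346-73558645, minus strand, summit at base 24) has 30 CpGs and a fold of 13.4, the highest among the windows with 20 or more.
Chaserr: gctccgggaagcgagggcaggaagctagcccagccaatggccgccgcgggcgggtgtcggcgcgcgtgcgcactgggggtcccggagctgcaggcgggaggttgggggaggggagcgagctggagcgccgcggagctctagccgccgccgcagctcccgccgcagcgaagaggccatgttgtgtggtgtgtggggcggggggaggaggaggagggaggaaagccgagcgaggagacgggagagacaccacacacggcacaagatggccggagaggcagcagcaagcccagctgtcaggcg
The Kcnq1ot1 window (chr7:143296498-143296797, minus strand, summit at base 181) has 9 CpGs and a fold of 7.35.
Kcnq1ot1: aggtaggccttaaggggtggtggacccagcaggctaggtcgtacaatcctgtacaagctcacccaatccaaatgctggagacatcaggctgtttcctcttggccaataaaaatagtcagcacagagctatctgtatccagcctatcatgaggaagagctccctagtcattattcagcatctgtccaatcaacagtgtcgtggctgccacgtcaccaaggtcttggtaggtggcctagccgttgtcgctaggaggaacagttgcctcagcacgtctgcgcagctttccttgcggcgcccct
The Chaserr summit lies near the upstream edge of its window, so the peak, 890 bp wide, extends past the letters shown. The Kcnq1ot1 peak was 551 bp wide, with its summit 70 bp upstream of the annotated gene start.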

How the data were processed

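CTCF ChIP-seq of whole F1 testes was analysed from 1 list of merged peaks. BWA 0.7.12, MACS2 2.2.7 and mm10 are named in the submitters' processing notes, without role or order. The authors deposited per peak a score, a fold enrichment (a ratio), and the −log10 of p and of q; the fold and −log10 q are the authors' values and were used within this list, and the score and −log10 p were not used. The peak names say bio2 and merged, so whether both IP samples entered was not settled. Depth is unknown.

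Gene ends came from RefSeq (GRCm38.p6). Genes starting below 3 Mb were left out as scaffold coordinates, among them 84 lncRNA genes. Strand was taken from the RefSeq promoter table, whose 1677 overlapping opposite-strand pairs of windows were all reverse complements. The printed short sequences are those of the 6 matching promoters of highest fold, 1 of which is not reported here. Distances are from the summit base, 1-based. Members and lists were chosen with earlier results of these data known.

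Within each autosome with at least 3 peaks in both sets, the log2 ratio of medians (or of densities) was taken; an exact sign-flip test (two-sided) was run in Python 3.11.15 with numpy 2.4.6. The smallest p is 3.8e-06 with 19 autosomes and 7.6e-06 with 18. P-values were adjusted by Benjamini-Hochberg over 6 planned comparisons and, apart, over the 5 added ones. For each alternative listed below, they were adjusted only over the comparisons run under that alternative. The test was tried on simulated labels. Named genes were the 10 highest and 3 lowest folds, the 3 genes with the most summits (only 2 had over 2), the 5 strongest testis clone genes, list genes with a member, the 3 strongest host and opposite-strand genes, 5 genes bound at each end, and edge cases. Alternatives were stricter peaks, other windows and distances, subsets of lncRNA genes, means, peaks inside or outside coding genes, nearer comparison peaks, flanks, and leaving out each autosome.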

Additional observations from a re-analysis of the deposited data

How the results depend on the processing

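Of 171 alternatives to the 6 planned comparisons, 164 kept direction and side of the threshold, among them all those that left out an autosome in turn. Such runs were most of the 171 and share nearly all their peaks with the main one. The 5 alternatives that changed direction and the 2 that fell short of the threshold were all among the other settings. The log2 ratio of fold against other distal peaks, which never passed the test, changed sign to 0.018 with fold at least 5, 0.018 with a 2 kb window, 0.011 over 10 kb from coding ends and 0.036 with lncRNA genes that overlap no coding gene. The log2 ratio of −log10 q fell to 0.022 with genes of a symbol other than a Gm number or LOC; the cause was not tested. Inside coding genes it was −0.092, and that of width 0.10, no longer past the threshold; the cause was not tested. Splitting peaks by place inside or outside coding genes, taking folds from 5 to 10 and leaving out autosomes were chosen after seeing the data. The ratio of width ranged from 1.11 to 1.34, that of fold against coding ends from 1.04 to 1.33, that of density from 1.58 to 2.77 and that of fold at starts against 3′ ends from 0.852 to 0.932. No paired analysis was possible because the values are those of merged peaks, and no replicate could be left out for the same reason. The unknown read depth limits what can be said of sites below the threshold.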
